A study of Mus musculus with 6 samples.

Results

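TRIM genes encode tripartite motif proteins, a family of E3 ubiquitin ligases. Its members here were all 68 protein-coding genes of the mouse annotation GENCODE M21 whose symbol is Trim followed by a number and at most 1 letter, out of 55536 gene IDs in the deposited tables. All 68 were found by Ensembl gene ID. RNA was sequenced in bulk from RAW264.7, a transformed line of mouse macrophages. Given the cytokine RANKL, it moves towards bone-resorbing osteoclasts. Control cells received RANKL at 50 ng/mL (3 libraries), and treated cells received RANKL at 50 ng/mL with etelcalcetide at 4 µM, a peptide agonist of the calcium-sensing receptor (3 libraries). No group without RANKL was analysed here. The series design gives 5 days for both groups, whereas single samples are labelled 5, 6 and 7 days in the order of their replicate numbers, so the replicate number and the stated duration cannot be told apart. No label calls the replicates separate cultures, so the p-values reflect spread among these libraries alone, and that spread may be technical.

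A typical TRIM protein carries a RING domain, which recruits a ubiquitin-loaded E2 enzyme, followed by B-box zinc fingers and a coiled coil through which the proteins pair. The C-terminal end differs between members and sets what they bind, most often through a PRY-SPRY domain. In macrophages the family is known mainly for innate immunity: several members are induced by interferon, restrict viruses, or attach ubiquitin to sensors and adaptors of the interferon and NF-kB pathways. Others act as nuclear corepressors or at centrosomes and membranes.

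The libraries held 13742913 to 16264432 gene-assigned reads, recovered from the deposited FPKM values (fragments per kilobase of exon, scaled to the assigned reads of the library). Of 8 macrophage markers, all were at 0.5 FPKM or more in every library, with a summed level of 2790 to 2944 FPKM with RANKL and 3145 to 3296 FPKM with etelcalcetide; 4 of them were higher by the test described below (Adgre1, Itgam, Spi1 and Fcer1g) and 0 lower. The summed level of 8 osteoclast markers was 347 to 481 FPKM with RANKL and 181 to 197 FPKM with etelcalcetide. By that test 5 of them were lower (Acp5, Ctsk, Atp6v0d2, Ocstamp and Oscar) and 0 higher. The sum hides unlike changes. Ctsk stood at 69.1 to 114 FPKM with RANKL and at 0.129 to 0.241 FPKM with etelcalcetide. Mmp9, at 134 to 173 and 154 to 169 FPKM, and Dcstamp did not pass, and Calcr was not tested. Over all tested genes, 26.0% rose and 27.0% fell. In bulk samples, fewer cells of a type and less RNA per cell cannot be told apart. Among 6 lymphocyte, 4 epithelial, 4 fibroblast and 3 endothelial markers, none reached 0.5 FPKM in all libraries; Cd3e, Cdh1, Krt8 and Col1a2 had 0 reads. The 3 endothelial markers summed to 0.496 to 0.766 FPKM with RANKL and to 0.0290 to 0.112 FPKM with etelcalcetide. Whether these shifts in markers have a part in the TRIM results was not tested.

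Because interferon-induced members lead the results, the letters of their promoters are shown first. RefSeq windows on GRCm38.p6, from 250 bases before to 50 bases after a start site, were matched by symbol for 53 of the 68 members (67 windows). The interferon-stimulated response element, to which interferon-activated STAT and IRF factors bind, was searched on both strands as GAAA, any 2 bases, GAAA. It was present for 9 of the 53 members (17.0%), namely Trim2, Trim5, Trim12a, Trim12c, Trim21, Trim26, Trim30a, Trim30d and Trim34a, and for 3.99% of all 27025 genes with a window. The gamma-activated sequence, another interferon-response element, was searched as TTC, any 3 bases, GAA, which reads the same on both strands. It was present for 6 members (11.3%), none of them among those 9, and for 9.55% of all genes. A match is only a match of letters and no record of binding. The 50 bases around the element are given below, 5′ to 3′ on the strand of the gene with the element in capitals, for the 7 members of chromosome 7 that hold it. In 6 of these the match lies on the opposite strand, so that it reads TTTC, any 2 bases, TTTC. For Trim30a, which has 2 start sites with a match, the upstream one is shown.
Trim30a, chr7:104465200-104465249, minus strand: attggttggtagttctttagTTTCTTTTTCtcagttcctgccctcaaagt
Trim30d, chr7:104507861-104507910, minus strand: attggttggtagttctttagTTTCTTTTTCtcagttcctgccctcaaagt
Trim12c, chr7:104353349-104353398, minus strand: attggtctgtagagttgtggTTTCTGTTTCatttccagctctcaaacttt
Trim12a, chr7:104315456-104315505, minus strand: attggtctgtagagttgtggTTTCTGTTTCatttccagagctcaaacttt
Trim5, chr7:104288126-104288175, minus strand: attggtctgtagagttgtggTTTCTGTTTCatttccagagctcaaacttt
Trim34a, chr7:104244447-104244496, plus strand: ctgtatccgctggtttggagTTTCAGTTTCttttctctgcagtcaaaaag
Trim21, chr7:102565440-102565489, minus strand: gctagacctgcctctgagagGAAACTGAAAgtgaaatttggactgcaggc

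The windows of Trim30a and Trim30d differed at 0 of 50 bases, as did those of Trim12a and Trim5, and Trim12c differed from the latter pair at 2 bases. The share of 17.0% given above counts each of these near-identical copies as a separate member. Trim21 holds a second, overlapping match 6 bases further on, and so does Trim26. Outside chromosome 7 the element stands in the promoters of Trim2, on chromosome 3, and of Trim26, in the major histocompatibility region of chromosome 17. The promoter of Trim26 is shown whole because Trim26 had the smallest adjusted p of the family after Trim30a. Its 2 overlapping matches, in capitals, begin 160 and 154 bases before the start site.
Trim26, chr17:36836896-36837195, plus strand: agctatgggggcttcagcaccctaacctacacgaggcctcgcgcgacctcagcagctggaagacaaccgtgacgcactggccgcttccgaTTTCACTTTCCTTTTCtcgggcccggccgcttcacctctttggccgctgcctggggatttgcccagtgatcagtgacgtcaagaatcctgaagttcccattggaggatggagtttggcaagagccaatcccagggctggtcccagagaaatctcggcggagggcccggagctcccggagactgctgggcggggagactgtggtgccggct

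Of the 68 members, 30 were expressed, which here means at least 0.5 FPKM and 10 reads in at least 3 libraries; these were tested. A further 10 members had at least 10 reads over the 6 libraries without reaching that level, 20 had 1 to 9 reads, and 8 had none (Trim9, Trim40, Trim42, Trim52, Trim58, Trim60, Trim61 and Trim80). For a member with no reads in a group, 3 reads over that group is the level that a count of 0 allows, covering counting error only. Of the 30 tested, 29 reached the minimum in all 6 libraries, and Trim34b reached it in the 3 treated libraries alone. Such a gene had to differ to be tested at all, so its call supports nothing about the family, and the main counts that hold it are also given without it.

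Levels spanned a wide range. Trim28, the corepressor of KRAB zinc finger proteins also called KAP1, stood highest, at 82.6, 81.6 and 90.6 FPKM in RANKL replicates 1 to 3 and at 97.1, 99.0 and 98.3 FPKM in the treated replicates. Its mean over the libraries lay at the 95.8th percentile of all tested genes. Trim25 and Trim8 followed, at 42.1 ± 1.09 and 43.0 ± 2.65 FPKM with RANKL (mean ± SD, n = 3), and did not differ beyond their spread in that group. Trim35, Trim27 and Trim44 came next at 26.2 ± 0.792, 21.8 ± 1.34 and 23.4 ± 1.31 FPKM, of which Trim27 and Trim44 overlapped. In all, 10 members averaged at least 10 FPKM over the 6 libraries, and the 5 most abundant ones held 58.7% to 62.2% of the summed TRIM level. That sum was 359, 352 and 369 FPKM with RANKL and 407, 407 and 420 FPKM with etelcalcetide, so the groups did not overlap on the deposited scale.

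**Figure D1:**
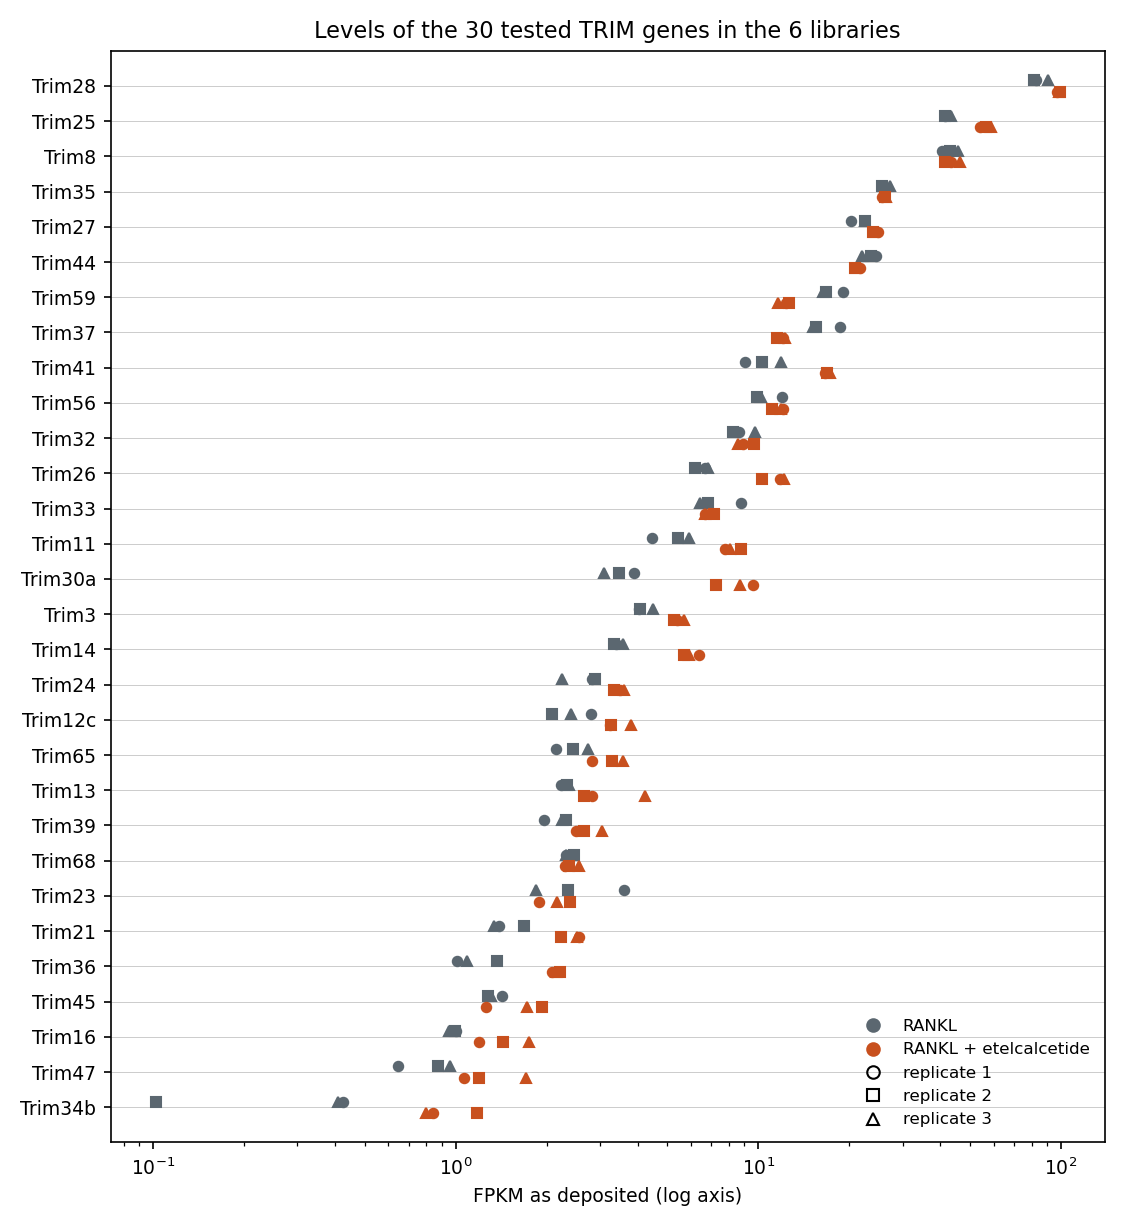
FPKM as deposited (log axis) of the 30 tested TRIM genes, ordered by mean, in 3 RANKL libraries (grey) and 3 libraries with RANKL and etelcalcetide (orange); marker shapes give the replicate. Trim28 stands highest in every library, and the groups separate most widely for Trim30a and Trim34b.

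The comparison asked which TRIM genes differed when etelcalcetide was added to RANKL. With the test run over all 11120 expressed genes (limma on log2 values, Benjamini-Hochberg adjusted p under 0.05), 12 of the 30 members rose and 3 fell, while 15 did not pass. Over all tested genes, 26.0% rose and 27.0% fell, 53.0% in either direction (2896 and 2998 genes, or 3558 and 2272 with library totals alone), so the share of TRIM genes called in either direction (50.0%) was near the background. By direction, 40.0% of members rose and 10.0% fell; without Trim34b 11 of 29 rose. The median log2 fold change was 0.30 for the members, 0.29 without Trim34b, and -0.01 for all tested genes. Of the 30, only 2 changed by 2-fold or more on this scale: Trim30a rose 2.27-fold and Trim34b, tested through its treated libraries alone, 2.60-fold. At 1.5-fold or more, 7 members rose (6 without Trim34b) and 0 fell, where 9.94% and 8.08% of all tested genes did. On scaled values all 3 treated libraries lay above all 3 RANKL libraries for 17 members (16 without Trim34b) and below for 4. The shares over all tested genes were 30.7% and 31.2%. Without etelcalcetide replicate 3, the number that rose went from 12 to 8.

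**Figure D2:**
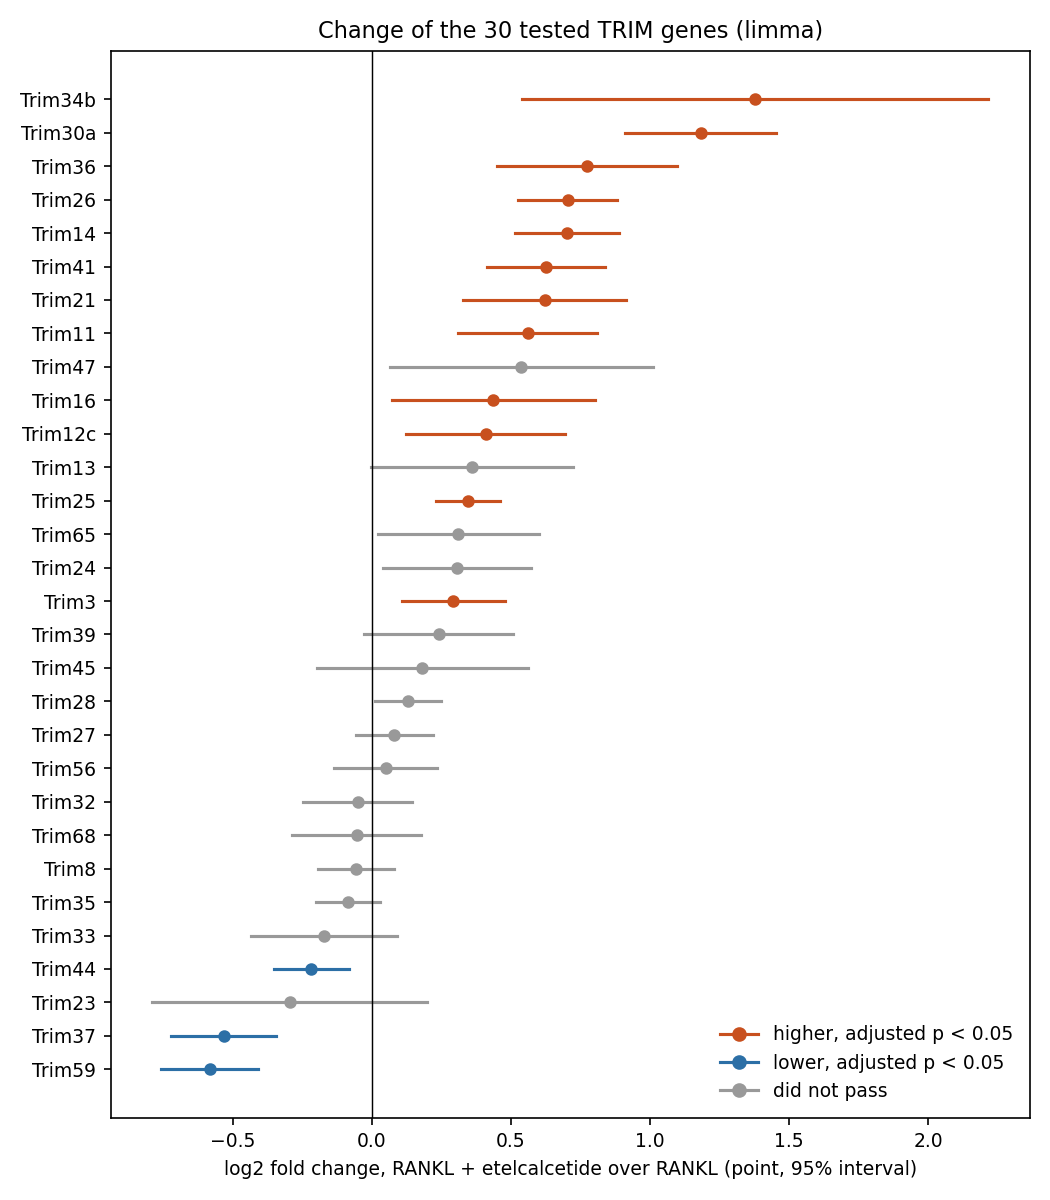
The log2 fold change (RANKL with etelcalcetide over RANKL, on the log2(FPKM + 0.1) scale) with its 95% interval for the 30 tested TRIM genes; orange, higher; blue, lower; grey, did not pass at adjusted p under 0.05. The 3 lower genes are Trim59, Trim37 and Trim44, and the largest change, that of Trim34b, has the widest interval.

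Of the 12 members that rose, 7 were interferon-induced genes or their copies. A list of 14 such genes and their cluster copies was taken from general knowledge of the family, with earlier results of these data known. It did not hold Trim5, a neighbour of listed genes on chromosome 7. Of the list, 8 were tested, 7 rose and 0 fell, and the median log2 fold change was 0.66. Without Trim34b, 6 of 7 rose, with a median of 0.62. Among the 22 tested members outside the list, 5 rose (22.7%) and 3 fell (13.6%), with a median of 0.16. Over all tested genes, 26.0% rose and 27.0% fell, so the share that rose outside the list was near the background. These medians and counts are descriptions of lists and carry no test of their own.

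Trim30a, an interferon-induced ligase that restrains Toll-like receptor signalling (ENSMUSG00000030921, chromosome 7, 104409025 to 104465193, minus strand, on GRCm38 as in M21), stood at 3.87, 3.48 and 3.10 FPKM in RANKL replicates 1 to 3 and at 9.59, 7.24 and 8.69 FPKM in the treated replicates. Every treated value was above every RANKL value, and the gap between the groups was wider than the spread within either. Its log2 fold change was 1.18 (SE 0.119, limma adjusted p = 6.43e-05). Trim26, a ligase of the major histocompatibility region linked to interferon control (chromosome 17, 36837134 to 36859398), stood at 6.69, 6.19 and 6.80 FPKM with RANKL and at 11.8, 10.3 and 12.1 FPKM with etelcalcetide. The groups were again apart, by 0.70 on the log2 scale (SE 0.0782, limma adjusted p = 0.000112).

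Trim14 is an adaptor of the mitochondrial antiviral protein MAVS that lacks a RING domain (chromosome 4, 46493781 to 46536141). Its values were 3.38, 3.34 and 3.59 FPKM with RANKL and 6.37, 5.67 and 5.90 FPKM with etelcalcetide, and the treated libraries lay well clear of the others. The log2 fold change came to 0.70 (SE 0.0827), at a limma adjusted p of 0.000158. However, 38.0% of its exon length overlaps exons of other genes, chiefly Nans on the opposite strand, and the sources used here do not say whether strand was kept, so the reads of Trim14 and Nans cannot be told apart there. Nans, a sialic acid synthase, stood at 25.8 ± 0.916 and 27.9 ± 1.57 FPKM and did not pass (log2 fold change 0.03, limma adjusted p = 0.652).

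Trim21, the cytosolic antibody receptor that marks antibody-coated virus for degradation (chromosome 7, 102557921 to 102565486), stood at 1.39, 1.68 and 1.33 FPKM with RANKL and at 2.57, 2.23 and 2.52 FPKM with etelcalcetide. The lowest treated value was above the highest RANKL value, and the log2 fold change was 0.62 (SE 0.129, limma adjusted p = 0.00354). Trim25, the ligase that activates the RNA sensor RIG-I (chromosome 11, 88999376 to 89020293), was far more abundant and changed less. It stood at 41.5, 41.5 and 43.4 FPKM with RANKL and at 54.1, 56.7 and 58.9 FPKM with etelcalcetide, so the groups were apart by 0.34 on the log2 scale (SE 0.0508, limma adjusted p = 0.000558). Trim56, a partner of the DNA-sensing adaptor STING, was the tested member of the list that did not pass. Its values of 12.0, 9.92 and 10.2 FPKM with RANKL overlapped those of 12.1, 11.1 and 11.9 FPKM with etelcalcetide (log2 fold change 0.05, 95% interval -0.13 to 0.23, limma adjusted p = 0.633).

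The remaining members of the list lie together. On chromosome 7, 10 TRIM genes stand side by side between 104218793 and 104507849, in the order Trim6, Trim34a, Trim5, Trim12a, Trim34b, Trim12c, Trim30b, Trim30c, Trim30a and Trim30d. Trim5 alone of them was not on the list. Only 3 of the 10 were expressed. Trim30a and Trim12c, which reached the minimum in all 6 libraries, both rose, and Trim34b was tested through its treated libraries alone. Trim12c, a rodent relative of the primate retrovirus restriction factor TRIM5, stood at 2.80, 2.09 and 2.41 FPKM with RANKL and at 3.24, 3.27 and 3.80 FPKM with etelcalcetide. Its groups were apart by less than those of Trim30a (log2 fold change 0.41 with SE 0.126, limma adjusted p = 0.0223), and the call was lost without RANKL replicate 2 and without etelcalcetide replicate 2 or 3 (limma adjusted p = 0.0793, 0.0568 and 0.1002). Trim34b stood at 0.425, 0.102 and 0.409 FPKM with RANKL and at 0.841, 1.18 and 0.798 FPKM with etelcalcetide. Those values rest on 12, 3 and 11 reads against 24, 30 and 24 reads, and RANKL replicate 2 is far below its fellows (log2 fold change 1.38, SE 0.370, limma adjusted p = 0.0124). Its neighbour Trim34a, below the minimum, had 7, 6 and 10 reads with RANKL and 16, 15 and 25 with etelcalcetide, so each treated library was above each RANKL library.

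Copies in this group are alike in sequence, which limits what single values mean. Of the 50-base stretches in the transcripts of Trim34b and Trim34a, 56.8% and 59.7% also occur in transcripts of another gene, mainly the other copy, and 23.5% of the exon length of Trim34a overlaps an opposite-strand gene. The share was 33.7% for Trim12c, shared mainly with Trim5 and Trim12a, and 5.98% for Trim30a, all with Trim30d. The sources used here do not say how reads that fit several copies were counted. The other copies were near silent. Trim6 had 2 reads, Trim5 had 3 and Trim12a had 1 over all 6 libraries, and Trim30d had 2 reads with RANKL and 7 with etelcalcetide. Trim30b had 1 and 9 reads, a depth-adjusted ratio of 8.55 (95% exact counting interval 1.19 to 375). Trim30c had 2 and 18 (ratio 8.55, interval 2.05 to 76.0). These intervals cover counting error only and not spread between libraries. Trim30b had 1, 0 and 0 reads in the RANKL libraries and 4, 0 and 5 in the treated ones, so its groups overlapped. With no filter Trim30b did not pass (limma adjusted p = 0.386), whereas Trim30c did (0.0182). Trim30a and Trim30d thus held the same 50 letters around the response element at very different levels, 8.51 ± 1.19 and 0.0438 ± 0.0491 FPKM with etelcalcetide.

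**Figure D3:**
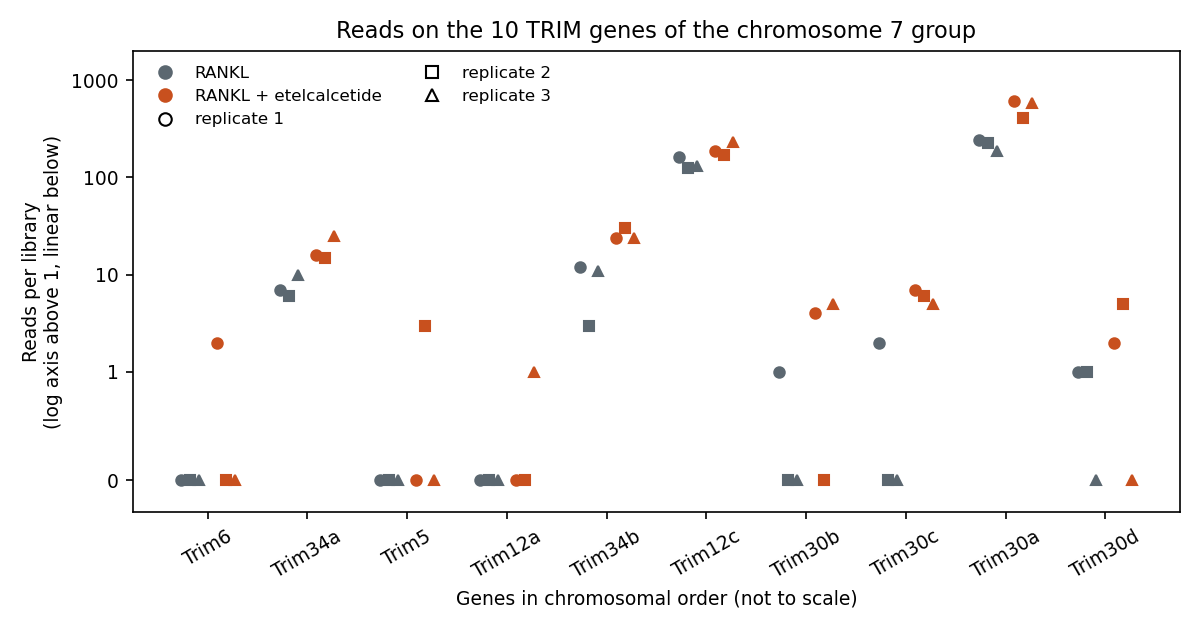
Reads per library on the 10 neighbouring TRIM genes of chromosome 7, in chromosomal order (log axis above 1 read, linear below); grey, RANKL; orange, RANKL with etelcalcetide; shapes give the replicate. Trim30a and Trim12c hold at least 124 reads in every library, Trim34a and Trim34b at most 30, and the other 6 genes from 0 to 7 reads in a library.

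Set against the promoter letters, the 4 tested members whose window holds the response element were Trim12c, Trim21, Trim26 and Trim30a, all 4 of which rose, with a median log2 fold change of 0.66. Of the 17 tested members whose windows lack it, 3 rose (Trim25, Trim34b and Trim41) and 3 fell, with a median of 0.13. Trim34b among them was tested through its treated libraries alone. Over all tested genes, 26.0% rose and 27.0% fell, and no test compared members with and without the element. Windows were not matched for 15 members. Among them were Trim3, Trim11, Trim14, Trim16 and Trim36, which rose and stand in neither count, whereas all 3 that fell had a window. The comparison therefore leaves out a large part of the members that rose. The element was also present for members that were hardly expressed, such as Trim5 and Trim12a.

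The members were also counted by C-terminal domain. Of the 38 members of the PRY-SPRY class 16 were tested, and 10 rose and 0 fell (median 0.49), or 9 of 15 (median 0.44) without Trim34b, against 26.0% and 27.0% of all tested genes. Outside the class, 14 were tested, of which 2 rose and 3 fell (median 0.00). No test compared the classes. The class and the interferon list overlap: 7 tested members stand in both, or 6 without Trim34b, and each of them rose. Without the list, 3 of 9 tested PRY-SPRY members rose, a share near that of all tested genes. Those 3 were Trim41, Trim11 and Trim16.

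**Figure D4:**
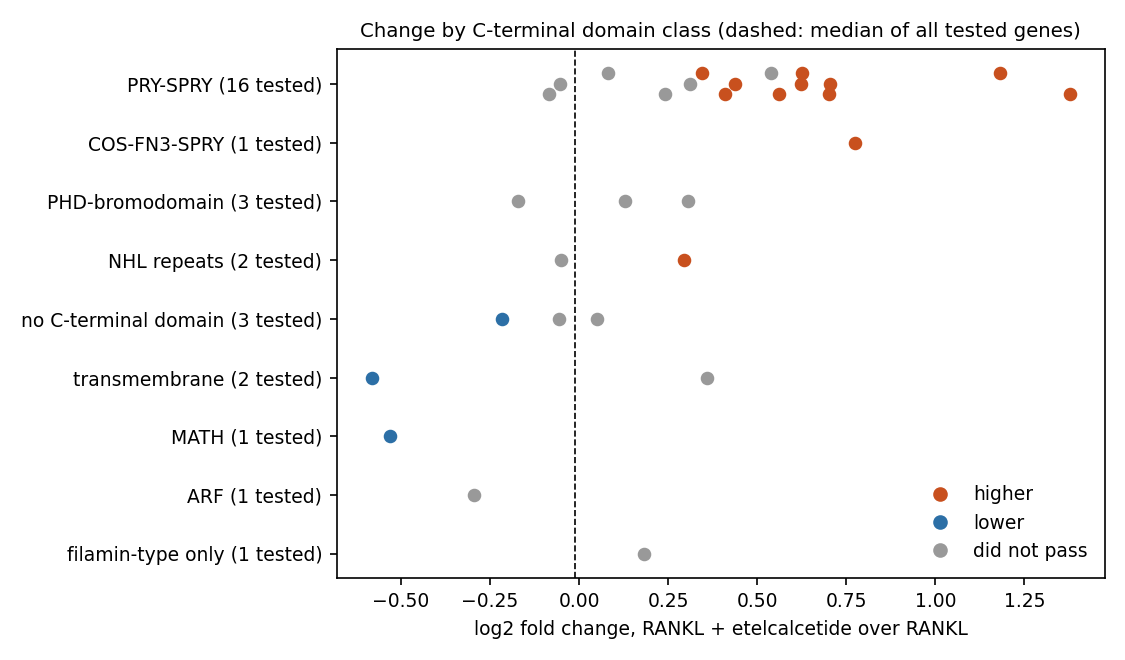
The log2 fold change of each tested TRIM gene by C-terminal domain class (orange, higher; blue, lower; grey, did not pass); the dashed line is the median of all tested genes, -0.01. Points of the PRY-SPRY class are spread vertically only to keep them apart, and 10 of its 16 genes are higher while none is lower. Without Trim34b, which was tested through its treated libraries alone, 9 of 15 are higher.

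Trim41, a ligase first known for binding protein kinase C (chromosome 11, 48806404 to 48817353), stood at 9.02, 10.3 and 11.9 FPKM with RANKL and at 16.7, 16.9 and 17.3 FPKM with etelcalcetide. The treated values were tightly grouped and above all RANKL values (log2 fold change 0.63, SE 0.0937, limma adjusted p = 0.000608). Trim11, a ligase linked to protein quality control (chromosome 11, 58978093 to 58991458), stood at 4.45, 5.44 and 5.90 FPKM with RANKL and at 7.79, 8.76 and 8.07 FPKM with etelcalcetide, again without overlap (log2 fold change 0.56, SE 0.111, limma adjusted p = 0.00269). Trim16, which lacks a RING and acts in the removal of damaged lysosomes, rose from 0.982 ± 0.0290 to 1.46 ± 0.280 FPKM (log2 fold change 0.44, limma adjusted p = 0.0460). That call was lost without any single library other than etelcalcetide replicate 1, with adjusted p = 0.0710 to 0.192 in those limma fits.

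Of the 2 risers outside the class, Trim36, a microtubule-associated ligase with both a COS and a SPRY domain (chromosome 18, 46165300 to 46212607), stood at 1.01, 1.37 and 1.09 FPKM with RANKL and at 2.08, 2.21 and 2.14 FPKM with etelcalcetide. The groups were clearly apart (log2 fold change 0.77, SE 0.143, limma adjusted p = 0.00187). Trim3, an NHL-repeat member of endosomal traffic, rose from 4.19 ± 0.250 to 5.44 ± 0.216 FPKM (log2 fold change 0.29, limma adjusted p = 0.0141, and 0.0619 without etelcalcetide replicate 3).

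The 3 members that fell were all abundant. Trim59, a membrane-anchored member (chromosome 3, 69035288 to 69044755), stood at 19.1, 16.7 and 16.4 FPKM with RANKL and at 12.4, 12.7 and 11.6 FPKM with etelcalcetide, every treated value lying below every RANKL value (log2 fold change -0.58, SE 0.0774, limma adjusted p = 0.000314). Trim37, a MATH-domain ligase that limits centrosome assembly (chromosome 11, 87127077 to 87220683), stood at 18.7, 15.6 and 15.2 FPKM with RANKL and at 12.1, 11.6 and 12.2 FPKM with etelcalcetide. It too was separated (log2 fold change -0.53, SE 0.0832, limma adjusted p = 0.000770). Trim44 lacks a RING and carries a zinc finger found in ubiquitin proteases. It fell from 23.4 ± 1.31 to 21.2 ± 0.464 FPKM (log2 fold change -0.22, limma adjusted p = 0.0142), a call lost when library totals alone set the scale (0.0829) and without RANKL replicate 2 (0.0517).

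None of the 3 nuclear corepressors of the PHD-bromodomain class passed. Trim28, whose values are given above, had a log2 fold change of 0.13 (95% interval 0.01 to 0.25, limma adjusted p = 0.0645); with upper-quartile scaling, with library totals alone and without RANKL replicate 3 it passed (0.0403, 0.0103 and 0.0128). Trim24, a reader of histone marks and partner of nuclear receptors, stood at 2.83, 2.88 and 2.25 FPKM with RANKL and at 3.50, 3.33 and 3.60 FPKM with etelcalcetide. Its groups did not overlap, but the log2 fold change of 0.31 just missed the threshold (95% interval 0.04 to 0.57, limma adjusted p = 0.0525), and it passed in 6 of 13 alternatives. Trim33, which acts on Smad4 in TGF-beta signalling, stood at 8.78, 6.83 and 6.43 FPKM with RANKL and at 6.69, 7.12 and 6.65 FPKM with etelcalcetide, where RANKL replicate 1 alone was high (log2 fold change -0.17, 95% interval -0.43 to 0.09, limma adjusted p = 0.238). A list of 9 Trim28 partners, all tested, had 2 members that rose and 5 that fell, where 26.0% and 27.0% of all tested genes did. The count of 2 became 1 without RANKL replicate 2 and without etelcalcetide replicate 2 or 3, and 3 with library totals alone and with upper-quartile scaling. The count of 5 became 4 with library totals alone, upper-quartile scaling, no filter or replicate number as a block. It was also 4 without any single library other than etelcalcetide replicate 1. The smallest adjusted p were those of Chd3, a remodeller of the NuRD complex, and Cbx3, a heterochromatin protein, with log2 fold changes of -0.74 and -0.70, followed by Hdac2 and Cbx5 at -0.48 and -0.40.

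A further group of members stayed within narrow limits. For Trim8, Trim35, Trim27 and Trim32, which are ligases of cytokine signalling, macrophage death, transcriptional repression and muscle upkeep, the 95% intervals of the log2 fold change were -0.19 to 0.08, -0.20 to 0.03, -0.06 to 0.22 and -0.25 to 0.15. Trim68 had -0.29 to 0.18. Wider intervals, which leave room for larger changes, belonged to Trim45 (-0.20 to 0.56), Trim39 (-0.03 to 0.51) and Trim23 (-0.79 to 0.20). In Trim23, which carries an ARF GTPase domain, RANKL replicate 1 was at 3.59 FPKM while the other 5 libraries were at 1.84 to 2.39 FPKM. Trim13, of the endoplasmic reticulum, was at 2.22 to 2.38 FPKM with RANKL and at 2.83, 2.65 and 4.21 FPKM with etelcalcetide, where replicate 3 stood out (limma adjusted p = 0.0874). Trim47 and Trim65, a ligase of the RNA sensor MDA5, are neighbours on chromosome 11 that share 8.23% and 3.83% of their exon lengths; both narrowly missed the threshold, with log2 fold changes of 0.54 and 0.31 (limma adjusted p = 0.0560 and 0.0670).

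Of the members too low to test, Trim7, Trim62 and Trim54 had the largest log2 fold changes in a fit with no filter. Trim7, which binds the glycogen primer glycogenin, had 4, 5 and 7 reads with RANKL and 48, 38 and 79 with etelcalcetide. Trim62, a ligase of the fungal-sensing adaptor CARD9, had 10, 5 and 12 reads with RANKL and 53, 27 and 67 with etelcalcetide. Both were higher in each treated library than in any RANKL library, and fitted with no filter they had log2 fold changes of 1.89 and 1.67 (limma adjusted p = 0.00423 and 0.0158). Trim54, a sarcomere-associated ligase of muscle, had 8, 5 and 8 reads with RANKL and 0 in each treated library. Counting error in both groups allows a ratio of treated to RANKL reads of up to 0.182 (95% exact interval). Of its exon length 26.6% of its exon length overlaps a gene on the opposite strand. Trim46, Trim2, Trim15 and Trim66 had 133, 60, 19 and 11 reads in all, and none of the 4 passed with no filter.

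Genes of the signalling around these ligases were read from the same fit, in which 26.0% of all tested genes rose and 27.0% fell. Of 9 receptor chains, kinases and factors of the type I interferon response, 8 rose, 0 fell, and Jak1, named as the sole exception, did not pass (log2 fold change 0.01). Irf7, the factor that amplifies interferon production, rose by a log2 fold change of 2.77, Stat2 by 1.08, Irf9 by 0.90 and Tyk2 by 0.77. Among 13 sensors, adaptors and kinases, several of which TRIM proteins ubiquitinate, 4 rose and 2 fell, so the share that rose was near that of all tested genes. The 4 were Ikbke, Ifih1, Ddx58 and Tmem173, which encode the kinase IKK-epsilon, the RNA sensors MDA5 and RIG-I and the adaptor STING, with log2 fold changes of 1.80, 1.75, 1.46 and 1.07. Ikbkg and Traf3 fell (named after their values were seen), and that count of 2 became 0 with library totals alone and without etelcalcetide replicate 1, and 1 without etelcalcetide replicate 2 or 3. Of 16 tested genes that supply ubiquitin, 5 rose and 4 fell, both shares near those of all tested genes. Ubb, Ube2l6 and Uba1 rose, with log2 fold changes of 0.37, 0.45 and 0.19. The 4 that fell, named after their values were seen, were the E2 enzymes Ube2e1, Ube2e3, Ube2k and Ube2n, at -0.32, -0.22, -0.23 and -0.20. With library totals alone 6 rose and 1 fell, and 2 fell without RANKL replicate 1 or 2 or etelcalcetide replicate 2.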

How the data were processed

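The authors deposited 1 table per library with FPKM values for 55536 Ensembl gene IDs. The submitters' processing notes name HISAT2 2.1.0, Trimmomatic 0.38, DESeq2 1.22.1, featureCounts 1.6.0, CASAVA, MultiQC and FastQC without role or order, and the human build GRCh38; all 55536 IDs are those of mouse GENCODE M21. FPKM times merged exon length gave whole reads (within 0.01 reads) for 100% of values.

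Groups and replicate numbers come from the sample titles. Scaling used trimmed means of M values (30% of M, 5% of A trimmed). The log2 of scaled FPKM plus 0.1 was fitted in limma 3.58.1 (R 4.3.3) with a mean-dependent prior variance. Tested genes had 0.5 FPKM and 10 reads in at least 3 libraries; changed means a Benjamini-Hochberg adjusted p under 0.05. Fold changes understate those of low genes. Printed FPKM values are unscaled. The steps were tested on simulated data. Tables were made with Python 3.11.15.

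Members and lists were chosen with earlier results of these data known. Every tested member is named; full values are given for called changes of at least 0.5 (log2), the interferon list and Trim24, Trim28 and Trim33, and of companion lists the 4 with the smallest adjusted p, of which 1 is not reported here.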

Additional observations from a re-analysis of the deposited data

How the results depend on the processing

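The count of changed TRIM genes was recomputed under 13 alternatives and stayed within 1.5 times the value of 15 in all of them (11 to 18). The number expressed was 29 to 30 with 1 library left out, 29 at a minimum of 1 FPKM and 34 at 0.1 FPKM, against 30. Of the 15 calls, 10 held under every alternative, and Trim12c, Trim16, Trim34b, Trim3 and Trim44 were lost under at least 1. Trim34b was not tested where a treated library was left out and with a minimum of 1 FPKM. Leaving out 1 library each gave 8 to 14 that rose and 2 to 4 that fell. With limma-voom on recovered reads 14 rose and 3 fell; with library totals alone 16 rose and 2 fell, and over all genes 3558 rose and 2272 fell against 2896 and 2998. Without a filter 12 rose and 4 fell, adding Trim7, Trim30c, Trim54 and Trim62 to the calls. Signs turned only where no call was made: with library totals alone Trim32 had a log2 fold change of 0.029, Trim68 of 0.023 and Trim8 of 0.023, and Trim32 ranged from -0.11 to 0.016 when 1 library was left out, above 0 only without RANKL replicate 3. The cause of each lost call was not tested.

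Replicate numbers, and with them the days in the sample labels, are shared by the groups. Deviations from the group means of libraries with the same number had correlations of 0.07, -0.02 and -0.03 across genes. Of the treated libraries, replicate 1 alone correlated best with its own number. With so few libraries per group, these values do not decide whether libraries of the same number are paired. With the replicate block 13 TRIM genes rose and 3 fell, and 5709 genes changed in all; Trim16 was lost (limma adjusted p = 0.0673), and Trim47 and Trim65 were gained (0.0296 and 0.0411). At this depth, values of members with under 10 reads in a library are imprecise.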

Other observations

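Some TRIM proteins have genes whose symbols do not carry the family name. Of 8 such genes and close relatives, 2 were expressed. Pml, the organiser of nuclear bodies and an interferon-induced member of the family, stood at 10.4 ± 0.483 FPKM with RANKL and rose to 17.8 ± 0.656 FPKM, by 0.69 on the log2 scale (limma adjusted p = 4.18e-05). Fsd1l, which has a similar C-terminal end, stood at 0.916 ± 0.0858 FPKM with RANKL and fell to 0.390 ± 0.0529 FPKM, by 1.12 on the log2 scale (limma adjusted p = 0.000923). It passed the filter through the RANKL libraries alone, so it had to differ to be tested. The other 6 were below the minimum.

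Counts were also taken by level. Of the 10 TRIM genes that averaged at least 10 FPKM, 2 rose and 3 fell, with a median log2 fold change of 0.00, and of the 20 tested members below that, 10 rose and 0 fell, with a median of 0.38, or 9 of 19 rose without Trim34b, with a median of 0.36. Of all tested genes at those levels, 27.9% and 24.7% rose and 33.4% and 22.3% fell. The difference between levels was not tested. Level and membership in the interferon list overlap, and their parts were not tested separately.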
